A study of Drosophila melanogaster with 2 samples.

Results

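The tagged Drosophila melanogaster protein CG13287 had 662 peaks inside introns and away from promoters, of 7026 peaks on the chromosome arms (9.42%, exact Clopper-Pearson 95% interval 8.75 to 10.1). A peak was counted when its summit, the position of strongest enrichment, lay more than 500 bp from every annotated transcription start site (TSS), inside a gene and outside every exon. The list was the larger of the 2 irreproducible-discovery-rate (IDR) filtered lists made from both replicates together, which its depositors call optimal, and is called the joint list here. Binding was measured by chromatin immunoprecipitation and sequencing with an anti-GFP antibody in whole embryos aged 6 to 24 h of a transgenic strain that expressed a CG13287-eGFP fusion protein. There was 1 group with 2 biological replicates, numbered in the labels, and no untagged, untreated or other-stage group. Sonicated fragments spanned 200 to 800 bp. Whole embryos of this age mix all tissues and many stages, so a peak cannot be assigned to a cell type, and the level of the fusion protein relative to the endogenous one is not known. Only peak positions and signals were at hand, and library depth is unknown for want of read counts. A site bound in few cells and a weakly bound site cannot be told apart.

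Introns of flies hold many enhancers, the elements that raise transcription from a distance, and the first intron of a long gene is a common place for them. The GAGA factor, encoded by Trl, and the zinc finger protein Clamp bind runs of alternating G and A and are known for opening chromatin at promoters and enhancers. DREF binds the DNA replication-related element (DRE), a motif of promoters of housekeeping genes, and BEAF-32 is an insulator protein that binds a shorter site contained in the DRE. CTCF is a further insulator protein of the fly. None of these factors was assayed here.

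The sequences that carry the 2 main patterns follow, each the summit with 50 bp on either side, on the plus strand and 5′ to 3′, from the Release 6 (dm6) genome of RefSeq. The first 6 are the strongest intronic peaks on the arms printed here, of which 4 hold a DRE. Ncoa6 is the strongest that holds a GAGA match. The last 5 are the strongest peaks with a GAGA match in Eip75B, rdx, Eip74EF, Raf and Trl, genes chosen after their values were seen. Capitals mark matches, on either strand, to motifs called more frequent at summits than beside them. These are GAGA (GAGAG), the CA repeat (CACACAC), the CTCF core (AGNNGGCGC), the DRE (TATCGATA) and the Mad-type GC box (GCCGNCG). A match is a run of letters in this window, not a shown binding site.
Asator (chr4:486650-486750): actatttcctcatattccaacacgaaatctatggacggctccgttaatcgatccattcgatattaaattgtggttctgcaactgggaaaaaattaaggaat
zf30C (chr2L:9759072-9759172): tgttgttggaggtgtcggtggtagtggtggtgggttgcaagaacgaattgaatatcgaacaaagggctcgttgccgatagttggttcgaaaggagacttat
Atg1 (chr3L:12794670-12794770): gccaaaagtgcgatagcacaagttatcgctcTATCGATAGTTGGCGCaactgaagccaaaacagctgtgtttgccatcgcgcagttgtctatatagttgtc
for (chr2L:3648313-3648413): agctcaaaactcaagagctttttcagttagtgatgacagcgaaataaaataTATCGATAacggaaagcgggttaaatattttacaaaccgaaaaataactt
Tudor-SN (chr3L:262858-262958): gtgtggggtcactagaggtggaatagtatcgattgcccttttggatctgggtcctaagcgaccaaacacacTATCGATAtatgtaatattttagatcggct
woc (chr3R:27263483-27263583): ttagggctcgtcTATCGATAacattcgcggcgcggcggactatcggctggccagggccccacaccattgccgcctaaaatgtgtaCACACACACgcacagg
Ncoa6 (chr2L:5325016-5325116): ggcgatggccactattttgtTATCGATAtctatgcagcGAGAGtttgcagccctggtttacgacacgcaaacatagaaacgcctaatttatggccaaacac
Eip75B (chr3L:17988237-17988337): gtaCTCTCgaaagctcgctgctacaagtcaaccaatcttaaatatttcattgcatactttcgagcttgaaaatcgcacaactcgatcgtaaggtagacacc
rdx (chr3R:14025007-14025107): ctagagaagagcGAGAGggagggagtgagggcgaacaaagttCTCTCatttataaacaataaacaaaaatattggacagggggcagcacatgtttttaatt
Eip74EF (chr3L:17573973-17574073): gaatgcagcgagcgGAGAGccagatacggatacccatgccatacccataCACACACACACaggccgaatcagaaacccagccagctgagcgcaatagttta
Raf (chrX:2317571-2317671): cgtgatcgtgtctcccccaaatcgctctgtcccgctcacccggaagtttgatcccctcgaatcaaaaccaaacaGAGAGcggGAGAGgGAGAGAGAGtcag
Trl (chr3L:14756438-14756538): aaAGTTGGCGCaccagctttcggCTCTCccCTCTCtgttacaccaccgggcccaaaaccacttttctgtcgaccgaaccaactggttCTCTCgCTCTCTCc

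The 6 strongest windows held no GAGA match, and the 5 windows from genes with several peaks held no DRE. Asator and zf30C, the strongest 2, held neither, although both windows contain the BEAF-32 site CGATA.

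The 20 intronic peaks with the highest signal all recurred in the IDR-filtered lists of both replicates and in the conservative list of both. Asator, which encodes a kinase related to tau tubulin kinases, had the highest joint signal of 1061, with 539 in replicate 1 and 540 in replicate 2. The zinc finger gene zf30C followed at 795 (338 and 472), and Atg1, the kinase that starts autophagy, at 765 (341 and 425). The ecdysone receptor gene EcR held a peak of 692, with 216 in replicate 1 and 488 in replicate 2. Replicate 2 was thus well above replicate 1 at EcR, while the replicates were nearly equal at Asator. The cGMP-dependent kinase gene for had 649 (313 and 349), Tudor-SN, which encodes a nuclease-related Tudor domain protein, 647 (274 and 374), and woc, a zinc finger gene required for ecdysone production, 549 (221 and 341). The Notch coactivator gene mam had 541 (160 and 381) and the T-box gene org-1 had 489 (122 and 375). Whether joint and single-replicate signals are on one scale is not known.

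The other 11 of the strongest 20 had joint signals of 348 to 482 and came from genes of varied function. They were Pp2C1, Dhc64C, the cytoplasmic dynein heavy chain gene, kirre, whose product acts in myoblast fusion, CG31688, GATAd, not, a deubiquitinase gene, Stt3A, Pgd, CG7102, BRWD3 and the Hox gene pb. Their replicate 1 signals spanned 64.1 to 223 and their replicate 2 signals 191 to 298. The lowest replicate 1 value belonged to pb, at 64.1 against 298 in replicate 2. Replicate 1 exceeded replicate 2 at not alone, with 223 against 191. These 20 summits lay 522 to 4983 bp from the nearest TSS, with a median of 978.5 bp.

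**Figure D1:**
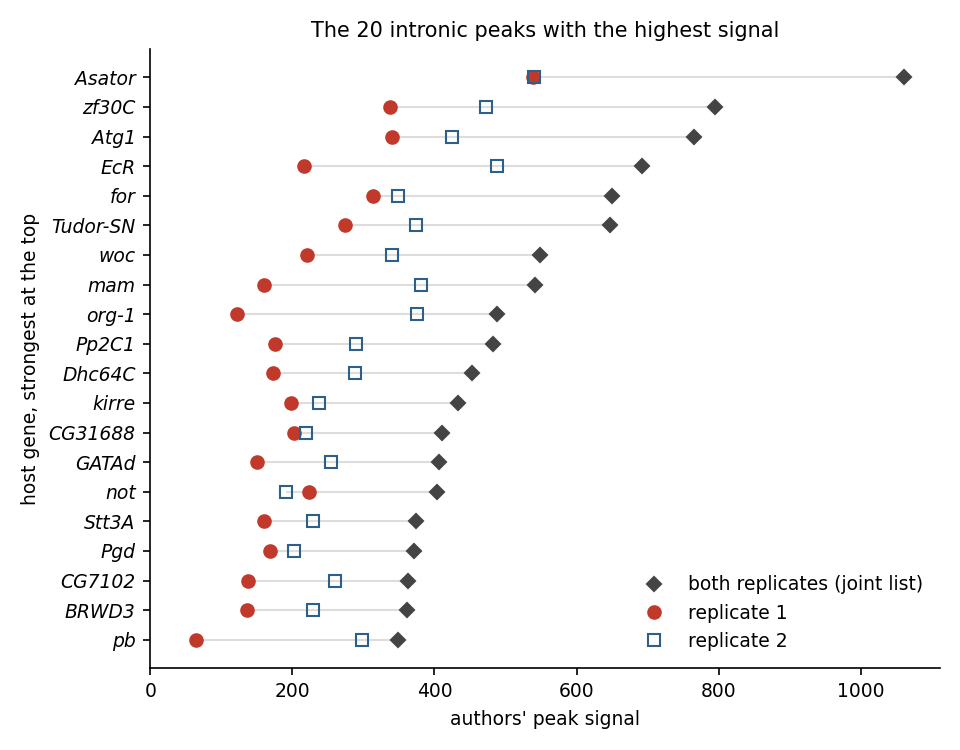
Authors' peak signal (x axis, linear) of the 20 strongest intronic peaks, named by host gene from the strongest at the top; circles are replicate 1, squares replicate 2 and diamonds the joint list. Circles sit left of squares at 19 of the 20 genes, and pb shows the widest relative gap, 64.1 against 298.

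Over all 662 members the joint signal ranged from 16.6 to 1061, with a median of 103 and quartiles of 82.7 and 143. Intronic peaks were weaker than promoter peaks, whose median was 170, and than intergenic peaks, whose median was 125. Of the intronic peaks 135 of 662 (20.4%) exceeded the median signal of the whole list, 155, against 3230 of 5866 promoter peaks (55.1%) and 116 of 375 intergenic peaks (30.9%). Both differences passed Fisher's exact test, two-sided, with odds ratios of 0.209 (adjusted p = 4.68e-67, Benjamini-Hochberg over the 2 comparisons) against promoter peaks and 0.572 (adjusted p = 2.09e-04) against intergenic peaks. Peaks share their libraries, so each such p describes the lists and not the replicates, and intervals cover counting error only. Just inside the 500 bp limit, the summits nearest the TSS of CG15406, Larp4B and CG2747 lay at 502, 503 and 516 bp with joint signals of 97.7, 270 and 106. Just outside it, those nearest CG4496, CG1648 and gish lay at 500 bp with 76.6, 63.9 and 150. A further 853 intronic summits lay within 500 bp of a TSS and were counted as promoter peaks.

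The replicates differed in how many intronic peaks passed the filter. Replicate 1 alone gave 198 intronic peaks of 3997 on the arms (4.95%, interval 4.30 to 5.67) and replicate 2 gave 783 of 7340 (10.7%, 9.97 to 11.4). Of the 662 joint peaks 168 (25.4%) overlapped a filtered peak in both replicates, 20 in replicate 1 only, 370 (55.9%) in replicate 2 only and 15.7% in neither. Among promoter peaks 62.4% overlapped one in both. Before the filter, entries overlapped 616 of the members (93.1%) in replicate 1 and all 662 in replicate 2. Of the 616 present in both, replicate 2 had the higher signal at 550 (89.3%), with a median ratio of replicate 2 over replicate 1 of 1.83. Promoter peaks had 90.0% and 1.62, so replicate 2 was higher in both classes.

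A filtered replicate 1 peak was found at 188 of 662 intronic peaks (28.4%, 24.99 to 32.0), against 63.8% of promoter peaks (62.6 to 65.1) and 30.7% of intergenic peaks (26.0 to 35.6). In Fisher's exact tests, two-sided and adjusted over 4 comparisons, the odds ratio against promoter peaks was 0.225 (adjusted p = 6.84e-68). Against intergenic peaks it was 0.897, and the exact test did not pass (adjusted p = 0.477). A filtered replicate 2 peak was found at 538 intronic peaks (81.3%, 78.1 to 84.2), against 94.1% of promoter peaks and 87.2% of intergenic peaks. The odds ratios were 0.272 (exact test, adjusted p = 1.53e-25) and 0.637 (adjusted p = 0.0198). Recurrence was highest in the strongest quartile of signal. In the weakest quartile of members 13 of 166 (7.83%) had a replicate 1 peak, against 39.0% of promoter peaks in the same range of signal. In the second quartile they were 6.67% and 18.5%, lower than in the first in both classes. In the third quartile, 103 to 143, the shares were 32.1% of members and 31.6% of promoter peaks. In the strongest quartile they were 66.9% and 85.8%. Among peaks above the median signal of the list, the replicate 2 share was 98.5% in introns against 99.3% at promoters, a difference that did not pass the exact test (adjusted p = 0.531).

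**Figure D2:**
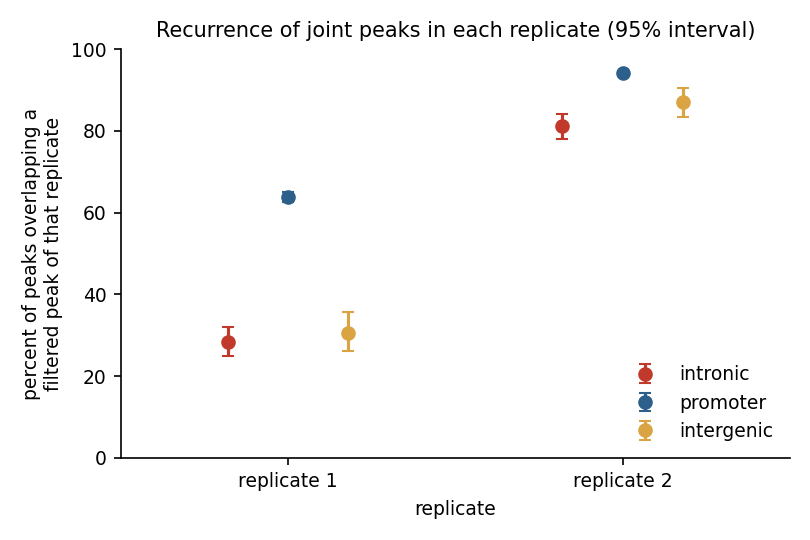
Percent of joint-list peaks (y axis) that overlap an IDR-filtered peak of replicate 1 or of replicate 2 (x axis), for intronic, promoter and intergenic peaks; bars are exact 95% intervals, which cover counting error only. Intronic peaks sit at 28.4% and 81.3%, below promoter peaks at 63.8% and 94.1%.

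Within the genome, intronic peaks were more frequent than bases predict and stood nearer to start sites. Of the 1160 summits outside promoters 57.1% (54.2 to 59.9) were intronic, against 45.1% of the bases outside promoters, and among peaks above the median signal of the list the intronic share was 47.7%. Intergenic summits made up 32.3% against 32.7% of bases, and exonic summits 10.6% against 22.2%. The median distance from the nearest TSS was 1774 bp, with a range of 502 to 42850 bp. Between 500 and 1000 bp lay 166 members (25.1%), against 8.21% of the intronic bases that meet the rule, and between 1000 and 2000 bp lay 186 (28.1%), against 13.1%. Beyond 10000 bp lay 40 members (6.04%), against 33.6% of such bases. Only 8 members overlapped the interval of a promoter peak, all of them within 1000 bp of a TSS.

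**Figure D3:**
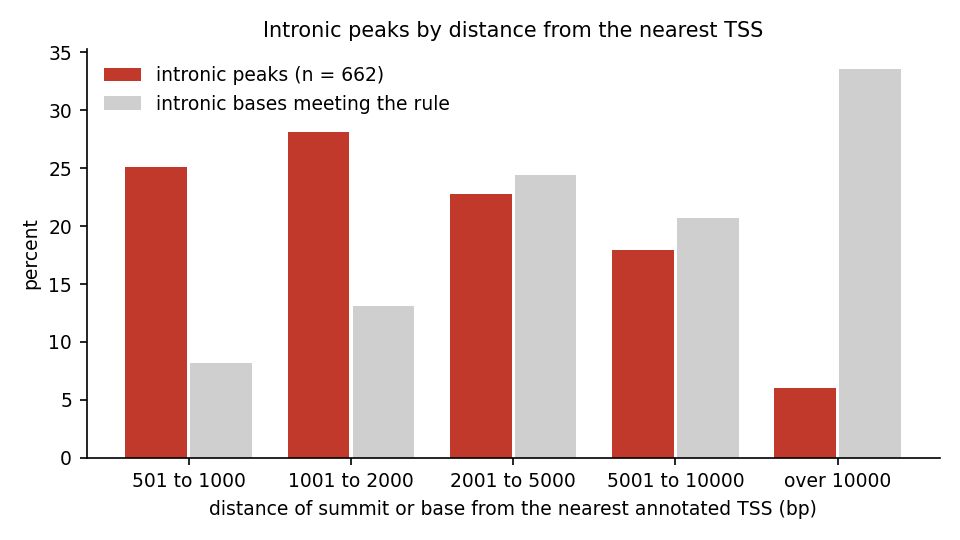
Percent of the 662 intronic peaks (red) and of the intronic bases that meet the rule (grey) in 5 ranges of distance from the nearest annotated TSS (x axis, bp). Peaks exceed bases in the ranges up to 2000 bp and fall to 6.04% against 33.6% beyond 10000 bp.

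First introns held 439 of the 662 members (66.3%, 62.6 to 69.9), against 43.0% of the intronic bases that meet the rule. Part of a first intron lies near a TSS, so the share was also taken farther away. More than 2000 bp from any TSS 165 of 310 members (53.2%, 47.5 to 58.9) lay in a first intron, against 37.2% of bases, and more than 5000 bp away 69 of 159 (43.4%, 35.6 to 51.5), against 30.9%. The introns that held members had a median length of 7169 bp, and the median distance from the nearest exon was 891 bp. Neither measure was taken over all bases that meet the rule, so how far these values follow from the rule was not tested. Annotated transposable elements held 8 members (1.21%), against 7.02% of the bases. Here, for the arms and in the ranges of distance, the shares of bases count every base that meets the rule, repeats included. Whether reads could be placed on all of them was not tested. The arms held 119 members on 2L, 142 on 2R, 133 on 3L, 148 on 3R, 117 on X and 3 on chromosome 4. Arm 2R held 21.5% of members against 17.2% of bases. No member lay on Y, which holds 1.78% of the bases, and a count of 0 allows a share of up to 0.453% taken as 3 counts of 662 (exact 95% upper bound 0.556%). Most intervals (537) were exactly 550 bp wide, a width set upstream.

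The host genes were long and often bound at their promoters. A host is any gene that spans the summit, and which gene a peak acts on was not tested. In 2 or more genes lay 48 members (7.25%), and the nearest TSS belonged to a host at 492 of 662 (74.3%). Among the strongest 20, the TSS of a gene that is not a host was nearest at EcR, Tudor-SN, mam, kirre, CG7102, BRWD3 and pb. Of 9111 protein-coding genes with at least 1 base meeting the rule, 483 held an intronic peak, which is 5.3%, and 125 of them held 2 or more. Their median length of such bases was 10484 bp, against 402.5 bp in the other genes. A gene can be a host only through such bases, so this difference partly follows from the rule. The 911 genes with the most such bases held 42.2% of the hosts and 75.05% of the bases, and 22.4% of these 911 longest genes were hosts. A promoter peak stood at 363 of the 483 hosts (75.2%), against 4351 of the 8628 other genes (50.4%), with 51.7% of all 9111 genes having one. That comparison was not adjusted for gene length.

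Eip75B, the gene of an ecdysone-induced nuclear receptor, held the most members, 9, with joint signals of 41.2 to 227. Its strongest peak had 70.6 in replicate 1 and 145 in replicate 2, all 9 overlapped filtered peaks of replicate 2 and 3 of them also of replicate 1, and 4 held a GAGA match. The 9 formed 8 groups of non-overlapping intervals. The Notch coactivator gene mam held 7, with joint signals of 77.5 to 541, of which 5 overlapped filtered peaks of replicate 2 and 3 of replicate 1. The gene rdx, whose product directs Cul3-dependent turnover of the Hedgehog effector Ci, held 7 of 41.1 to 198, 6 with a replicate 2 peak and 4 with a replicate 1 peak, and 5 held a GAGA match. These 7 formed 6 groups, and in the overlapping pair both members matched the same peak of each replicate. The MAP kinase kinase kinase gene Raf held 6 of 62.2 to 162, in 5 groups, all with a replicate 2 peak and none with a replicate 1 peak. Eip74EF, an ecdysone-induced ETS factor gene, held 5 of 92.6 to 185, all with a replicate 2 peak and 3 with a replicate 1 peak. Each of these 5 genes also had a promoter peak. Over these 5 genes, filtered peaks of replicate 2 thus covered more members than those of replicate 1.

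Genes of the ecdysone receptor and response, the steroid hierarchy that drives moulting and metamorphosis, were frequent hosts. Of 21 such genes with bases meeting the rule 14 held an intronic peak (66.7%), against the 5.3% of all genes. Together they had 38 members, or 54.4 per Mb of such bases, against 12.6 per Mb over all genes. Among the 911 longest genes 11 of the 14 ecdysone genes were hosts, against 22.4% of all 911. The early genes EcR (3 members), Eip75B (9), Eip74EF (5) and br (1), the nuclear receptor genes ftz-f1 (5), Hr3 (3), Hr4 (2), Hr39 (1) and Eip78C (1), the coactivator gene tai (3) and Kr-h1 (2), a juvenile hormone target, were among them. At ftz-f1 the joint signals were 79.8 to 143 and at Hr3 61.9 to 116, weaker than the EcR peak of 692. In the list of replicate 2 alone 14 of the 21 were hosts, where 6.00% of all genes were, and in that of replicate 1 alone 5 were, where 1.85% were. The lists were drawn up with earlier results of these data known, so these counts are descriptions without a test.

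BTB domain transcription factors, a family that includes the GAGA factor, were hosts at 9 of 13 genes (69.2%), with 14 members or 30.6 per Mb. The gene br and its 1 member are counted in both this list and the ecdysone list. Of the 8 among the 911 longest genes 7 were hosts. Trl, the GAGA factor gene, held 4 members with joint signals of 109 to 233. Before the filter the strongest had 81.2 in replicate 1 and 174 in replicate 2. All 4 overlapped filtered peaks of replicate 2, and 1 of them, not the strongest, also overlapped one of replicate 1. The gene psq, whose product also binds GA repeats, held 3 of 71.8 to 237, and mod(mdg4), an insulator protein gene, held 1 of 300. Before the filter the strongest psq peak had 66.3 in replicate 1 and 189 in replicate 2. All 3 psq members overlapped filtered peaks of replicate 2, and none overlapped one of replicate 1. In the list of replicate 1 alone 4 of the 13 were hosts and in that of replicate 2 alone 9 were.

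Signalling genes were hosts at 11 of 40 (27.5%), with 25 members or 31.4 per Mb. Beyond mam these were led by pnt, the Egfr pathway ETS factor gene, at 195, and by the Wnt receptor gene fz2 at 167. The Dpp pathway gene shn held 5 members of 86.2 to 159. Polycomb, trithorax and remodelling genes were hosts at 4 of 26 (15.4%), with 5 members but few such bases, so that the density was 52.2 per Mb. Its strongest were kis, a chromodomain remodeller gene, at 229 and the remodeller gene Mi-2 at 119. Muscle genes were hosts at 8 of 32, at 13.8 per Mb, led by kirre at 434 and the muscle regulator gene Mef2 at 286. Epithelial polarity and cytoskeleton genes were hosts at 8 of 32, at 13.7 per Mb, led by the myosin gene zip at 100.97. Both densities were close to the 12.6 per Mb of all genes. Patterning and neurogenesis factors were hosts at 6 of 36, at 10.7 per Mb, of which 5 were Hox genes. The Hox peaks had joint signals of 348 at pb, 205 at Ubx, 136 and 75.9 at Abd-B, 94.7 at Antp and 72.8 at lab. The sixth was the neural gene pros.

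The 2 lists of neuronal genes had the lowest densities of the 9 lists. Of 39 axon guidance and recognition genes 1, Dscam1, held intronic peaks, with 2 members of 197 and 145. The density was 1.14 per Mb, although the median gene of the list had 33062 bp that meet the rule. Of 29 ion channel and synaptic genes 1, the potassium channel gene KCNQ, held a peak, of 222, at 1.31 per Mb. Both lists are short selections, and related genes outside them were hosts, named here after their values were seen. The recognition gene beat-Ib held 4 members of 82.1 to 161, and beat-VII held 2. The genes side-V, sdk, the potassium channel gene SLO2 (139.6 joint signal), the calcium channel gene Ca-alpha1T (109) and the synaptic SNARE gene Snap25 (105) held 1 each, so the list counts do not speak for neuronal genes as a class. Among the 911 longest genes 1 of 30 guidance genes and 1 of 18 channel and synaptic genes were hosts, against 22.4% of all 911. At promoters, 24 of the 39 guidance genes had a peak (61.5%) and 9 of the 29 channel and synaptic genes (31.0%), against 51.7% of all genes. In the list of replicate 2 alone 3 of the 39 guidance genes were hosts and in that of replicate 1 alone 1 was.

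**Figure D4:**
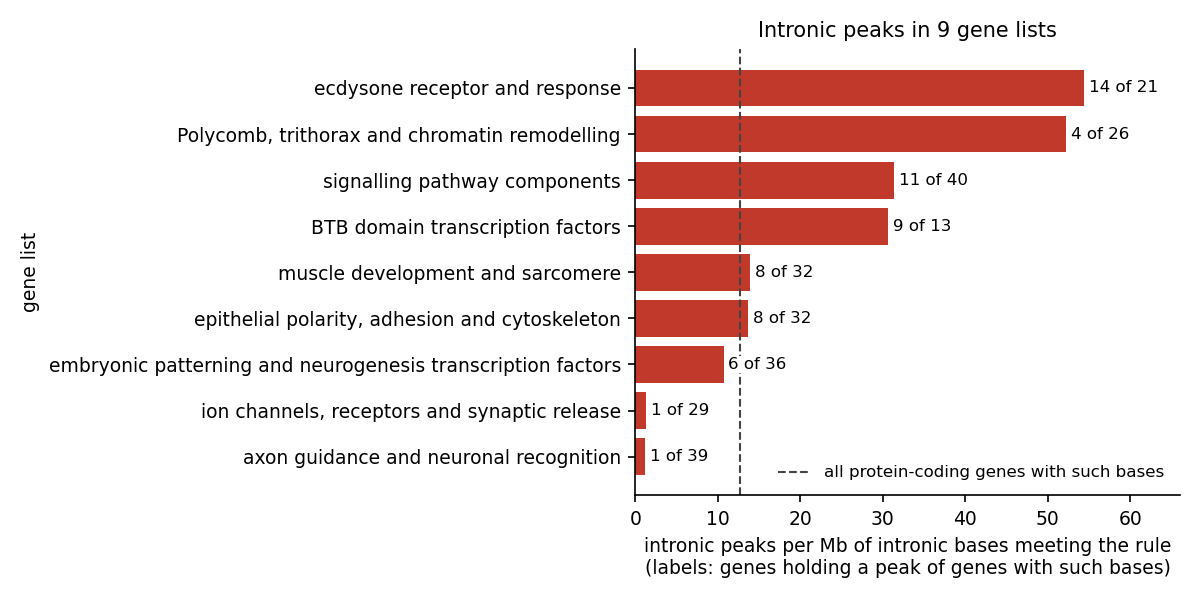
Intronic peaks per Mb of intronic bases that meet the rule (x axis) in 9 gene lists; the label gives the genes holding a peak of the genes with such bases, and the dashed line is the density over all 9111 protein-coding genes, 12.6 per Mb. Ecdysone genes stand at 54.4 per Mb and axon guidance genes at 1.14 per Mb.

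The sequence under the summits was compared with that 500 bp to the side, in windows of the same width at the same 662 loci, on the side away from the nearest TSS. Of 39 known motifs 5 (12.8%) were more frequent at the summit and 6 (15.4%) less frequent, by exact two-sided McNemar tests with Benjamini-Hochberg adjustment. GAGA was found at 209 summits (31.6%, 28.0 to 35.3), against 85 windows beside them (12.8%, 10.4 to 15.6), and the exact test gave an adjusted p of 3.32e-15. Of all 499859 windows that tile the eligible introns 11.3% hold it. The CA repeat had 10.3% against 4.68% beside and the CTCF core 4.68% against 1.21%, each with an adjusted p of 0.00362 in the exact test. Of all intronic windows 3.89% and 0.631% hold these motifs. The DRE was in 13 summit windows against 1 beside (1.96% against 0.151%, exact test, adjusted p = 0.0119), and 0.217% of all intronic windows hold it. The Mad-type GC box had 6.19% against 3.02% (exact test, adjusted p = 0.0374), and 2.48% of all intronic windows hold it. It was in 4 of 188 members with a replicate 1 peak (2.13%) and in 37 of 474 without one (7.81%). The same shares were 9.04% and 10.8% for the CA repeat, 5.32% and 4.43% for the CTCF core, and 4.26% and 1.05% for the DRE. These splits were not tested. In the list of replicate 1 alone, without replicate 2, GAGA was the 1 motif more frequent at the summit, at 29.3% of 198 peaks (exact test, adjusted p = 0.00396). Motifs were searched on both strands, and every DRE also contains the BEAF-32 site CGATA, which itself did not pass here and which 10.7% of all intronic windows hold.

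The 6 motifs less frequent at the summits were mostly rich in A and T. The Hox-Exd site TGATNNAT had 3.17% against 7.85% (exact test, adjusted p = 0.00362), the Bicoid site TAATCC 0.906% against 3.78%, the Sox site AACAAT 7.25% against 11.9%, and the TATA box 9.52% against 14.4%. The homeodomain core and the nuclear receptor site also had lower shares. Base composition moved with these differences, since the summit windows held 45.8% G and C on average and the windows beside them 38.7%. The part of composition in these differences was examined in pairs of like GC content. In the 160 pairs within 5 percentage points of each other in GC content, GAGA was in 23.1% of summit windows against 11.9% beside (exact McNemar p = 0.00956, adjusted p = 0.373), and no motif passed the adjusted threshold. At an unadjusted p under 0.05, 3 of the 39 motifs were then higher at the summit and 0 lower. In these pairs the TATA box and Sox shares were 3.13 and 0.625 percentage points higher at the summit, where over all 662 they were lower. Neither of these differences passed the adjusted threshold over the 160 pairs, so no reversal is claimed.

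In a search without assumed motifs, the more frequent 6-mers with the smallest p were pieces of GA runs. Of 2080 6-mers, each counted with its reverse complement, 109 (5.24%) were more frequent at the summit and 118 (5.67%) less frequent, against 5 more frequent ones in the list of replicate 1 alone. The strongest was GAGAGC, in 17.5% of summit windows against 3.93% beside (exact test, adjusted p = 3.24e-13), a ratio of 4.46. After it came AGAGAG at 19.3% against 5.89%, then AGAGCG at 15.0% against 3.32%, GAGAGA at 16.6% against 5.14%, GAGCGA at 14.0% against 3.63% and GCGAGA at 12.8% against 3.63%. All 6 are overlapping pieces of GA runs or of a GA run next to a C. Of the 118 less frequent 6-mers 88 had 5 or 6 A or T letters, and of the 109 more frequent ones 0 did. Of those 109, 102 had 3 or fewer A or T letters and 8 contained GAGAG, so most did not hold the GAGA motif itself. In the GC-matched pairs 0 of the 2080 passed, with 46 higher and 55 lower at an unadjusted p under 0.05.

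The GAGA matches clustered within about 200 bp of the summit. Between 100 and 75 bp before it 13.6% of members had a match within the 25 bp bin, in the first 25 bp after it 12.8%, and 400 to 375 bp before it 4.38%. Of the 209 members with a match 112 had at least 2 and 32 at least 5, and the longest GA run was 27 bases. GAGA was in 24.7%, 33.9%, 36.4% and 31.3% of members from the weakest to the strongest quartile of signal. Its share was 30.9% (24.3 to 37.98) in members with a replicate 1 peak and 31.9% (27.7 to 36.3) in those without one. By distance from a TSS it was lowest between 1000 and 2000 bp, at 26.3%, and at least 33.1% in each of the other 4 ranges. Of the strongest 20 members 0 held a GAGA match.

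The DRE was concentrated among the strong peaks. Of the 13 members that held it 7 were among the strongest 20 and Ncoa6 was the 23rd, and their median joint signal was 363 against 103 in the 649 members without it. Atg1, for, Tudor-SN, woc, kirre, Stt3A and CG7102 were the 7, with 137 to 341 in replicate 1 and 229 to 425 in replicate 2. The other 5 were Imp at 190, nrm at 95.9, the Hedgehog effector gene ci at 90.9, dpr11 at 77.8 and hang at 74.0. Their summits lay 522 to 17555 bp from the nearest TSS. GAGA and DRE shared 2 windows.

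Intronic and promoter summits differed in motif content. Of 39 motifs 4 (10.3%) had a higher share in introns and 6 (15.4%) a lower one, by two-sided Fisher's exact tests with Benjamini-Hochberg adjustment. GAGA was in 31.6% of intronic windows against 14.2% at promoters (exact test, adjusted p = 5.12e-25), the CA repeat in 10.3% against 3.84% (adjusted p = 2.57e-10), the CTCF core in 4.68% against 1.70% (adjusted p = 2.92e-05) and the Runt site in 2.57% against 1.06% (adjusted p = 0.0103). The BEAF-32 site was in 14.8% against 39.0% (exact test, adjusted p = 3.66e-37) and the DRE in 1.96% against 11.3% (adjusted p = 2.77e-17). The promoter motifs Ohler 7 at 2.72% against 8.27% and the M1BP core at 0.906% against 4.89% were also lower in introns. The Mef2 and Sox sites were the other two with lower shares.

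Composition differed here too, at 45.8% G and C in intronic windows and 42.2% in promoter windows. GAGA was higher in introns in each of 5 ranges of GC content. In windows of 40 to 45% GC it was 34 of 107 intronic windows (31.8%) against 117 of 1111 promoter windows (10.5%), in those of 45 to 50% 27.8% against 15.5%, and in those of 50% and above 47.0% against 28.2%. Below 35% it was 12.1% against 5.81%, and from 35 to 40% 20.3% against 9.27%. Over windows of 40 to 50% GC, a range chosen after seeing the data, the share was 29.4% in introns, 16.6 percentage points above promoters (Fisher's exact test, adjusted p = 8.9e-10). The same range left the CA repeat, CTCF core, BEAF-32, DRE, Ohler 7 and M1BP differences past the threshold, and the Runt, Mef2 and Sox differences short of it.

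**Figure D5:**
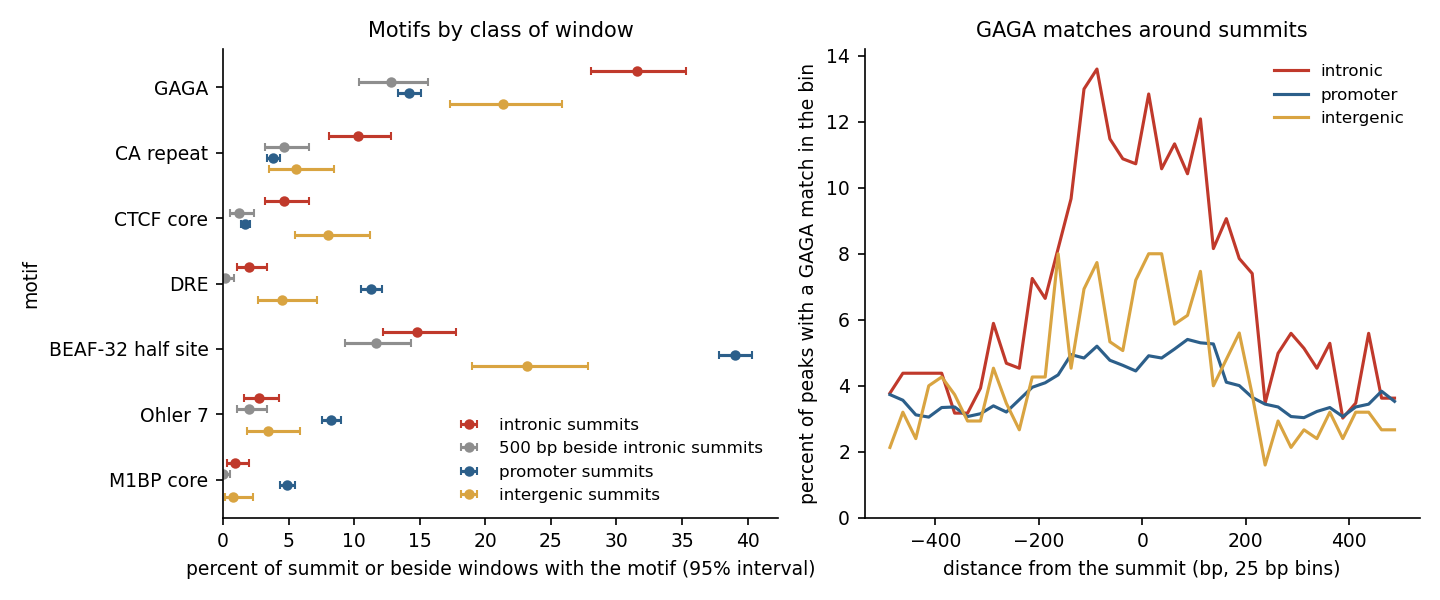
Left, percent of windows reaching 50 bp either side with each motif (x axis, exact 95% intervals) at intronic summits, 500 bp beside them, at promoter summits and at intergenic summits; right, percent of peaks with a GAGA match (y axis) per 25 bp bin of distance from the summit (x axis, bp). GAGA stands at 31.6% of intronic windows against 14.2% at promoters, and BEAF-32 at 14.8% against 39.0%.

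Fewer motifs differed between intronic and intergenic summits. Of 39 motifs 1 (2.56%), GAGA, had a higher share in introns, at 31.6% against 21.3% (exact test, adjusted p = 0.0158), and 2 (5.13%) a lower one. The BEAF-32 site was in 14.8% against 23.2% (exact test, adjusted p = 0.0187) and the Mef2 site in 0.755% against 3.47% (adjusted p = 0.0280). Mean G and C content was 45.8% in intronic and 43.3% in intergenic windows. Below 35% GC, GAGA was in 12.1% of intronic against 3.08% of intergenic windows. From 35 to 40% it was 20.3% against 14.3%, and from 40 to 45% 31.8% against 14.6%. From 45 to 50% it was lower in introns, at 27.8% against 29.8%, and at 50% and above it was 47.0% against 42.5%. These ranges were not tested singly. In the range of 40 to 50% GC none of the 39 passed, and GAGA was at 29.4% in introns, 9.17 percentage points above intergenic windows (exact test, unadjusted p = 0.0490, adjusted p = 0.637), against 10.2 points over all peaks. At an unadjusted p under 0.05, 3 were then higher in introns and 0 lower. In the list of replicate 1 alone the GAGA difference did not pass the exact test either (adjusted p = 0.295).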

How the data were processed

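The listing that comes with each sample, part of the deposited files, places the peak lists on dm6 and traces them to filtered alignments. Aligner, peak caller and control are not stated there. The authors' signal is the peak strength as their caller gave it, on an unstated scale, and the deposited score is an IDR score capped at 1000. Each summit was the peak start plus the deposited offset. Positions were classed with the Ensembl release 115 annotation of BDGP6.54, without transposable elements, and sequences came from the RefSeq Release 6 genome. Motif windows reached 50 bp to either side of the summit, and peaks overlapped when they shared at least 1 bp. Two-sided Fisher's exact and exact McNemar tests (python 3.11.15, scipy 1.17.1) were adjusted by the Benjamini-Hochberg method, with calls at 0.05. Of these tests only the McNemar test was checked on simulated data, in windows of equal base composition. That check did not cover differences in GC content.

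Every test ran over peaks or windows and none over the 2 replicates. The members, gene lists, motifs and named items were chosen with earlier results of these data known. Named by rule were the 20 strongest members, the 5 genes with most members, up to 3 hosts per list by signal, and the called motifs and 6-mers with the smallest p, at most 8 of each; further hosts, and the sequences said to be so, were chosen after their values were seen. The list symbols h, Dl, RIM-BP and Unc-89 were matched under the current names hry, Delta, Rbp and Obsc. Alternatives were other TSS distances, lists, summits, overlaps, windows and flanks, GC-matched windows, and each replicate's list alone.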

Additional observations from a re-analysis of the deposited data

How the results depend on the processing

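No paired analysis was possible because the series has 1 group, and its 2 replicates are not compared between groups. The differences in GAGA, BEAF-32 and DRE shares from promoter peaks kept their direction and passed the test under all 11 alternatives that recomputed them, and the lower signal of intronic than promoter peaks under all 8. Leaving out 1 replicate gave 198 to 783 intronic peaks, 1.85% to 6.00% of genes holding one, 66.8% to 70.2% of members in a first intron, 1 to 5 known motifs and 5 to 116 6-mers more frequent at summits, and 5 to 11 and 1 to 1 motifs differing from promoter and intergenic peaks. With a TSS distance of 200 bp 49.0% of summits outside promoters were intronic, and 5 motifs differed from intergenic peaks. The 45.1% of bases given above belongs to the 500 bp limit and cannot be set beside this 49.0%. With 1000 bp 61.3% of members were in a first intron, 1 motif and 63 6-mers were higher at summits, and 0 motifs differed from intergenic peaks (2 higher and 3 lower at an unadjusted p under 0.05). The conservative list gave 440 peaks, 3.74% of genes, 53 6-mers more frequent at summits and 5 motifs differing from intergenic peaks. Peaks above the median signal gave 135 members, 47.7% of summits outside promoters, 1.39% of genes, a replicate 2 share of 98.5%, 1 motif and 0 6-mers at summits (87 higher and 65 lower unadjusted), 6 motifs against promoter peaks and 0 against intergenic peaks (2 higher and 1 lower unadjusted). Against intergenic peaks, summits taken as midpoints gave 1 motif, protein-coding genes only 0 (3 higher and 4 lower unadjusted), and windows of 25 bp on either side 0 (2 higher and 3 lower). Flanks 1000 bp away gave 48 6-mers, and the narrow windows 3 motifs and 29 6-mers. GC-matched pairs gave 0 motifs and 0 6-mers. Windows of 40 to 50% GC, added after seeing the data, gave 0 motifs (0 unadjusted) and 0 6-mers (24 higher and 28 lower unadjusted) more frequent at summits than beside them, over 87 pairs, and 0 against intergenic peaks. The TATA box difference turned to 2.96 points higher at summits among peaks above the median signal, to 3.13 in GC-matched pairs and to 1.15 at 40 to 50% GC, and the Sox difference to 0.625 in GC-matched pairs. None of these turned differences passed the adjusted threshold. The causes of these changes were not tested, and fewer peaks or pairs entered most of them. The unknown depth of the libraries limits every count of peaks.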
